A study of Mus musculus with 24 samples.

Results

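Ppdpf, Leng8, Fbxo6, Ppic and Atxn7l1 are 5 of the 19505 mouse genes measured here by at least 1 array probe, and each of the 5 has exactly 1 probe. They were chosen by their measured difference between kidneys of mice given an oligonucleotide against the microRNA miR-22 and kidneys of mice given a mock oligonucleotide. The values that chose them are therefore given below as a description, with no test. The tests reported are those of the glycerol effect averaged over both oligonucleotides, of the variation between arrays of one group, and of related and neighbouring genes.

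Kidney RNA came from male C57BL/6N mice aged 10 weeks, on 24 arrays in 4 groups. Every animal received an oligonucleotide under the skin at 20 mg/kg, had no drinking water for 23 h and received the analgesic carprofen at 5 mg/kg. In the groups named Rhabdo, a leg muscle received 50% glycerol 24 h after the oligonucleotide, which breaks down muscle and causes acute kidney injury. Sham animals went through the same procedure without glycerol, and kidneys were taken 24 h after that step. The groups were sham mock (5 arrays), sham anti-miR-22 (5 arrays), Rhabdo mock (7 arrays) and Rhabdo anti-miR-22 (7 arrays). A mild and a severe glycerol dose are described, and the labels do not say which one a sample received. Both oligonucleotide arms were injected and no arm without an oligonucleotide was analysed here, so a rise with anti-miR-22 and a fall with mock cannot be told apart. The labels do not state that each array is a separate animal, so p-values cover only the spread between the arrays, which may be technical.

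The 2 oligonucleotides are shown because the contrast that chose the genes is the contrast between them. Sequences run 5′ to 3′, and capitals in the oligonucleotides mark the positions at which they differ. Capitals in the microRNA mark the seed, bases 2 to 8, through which a microRNA pairs with its target RNAs.
anti-miR-22: ctTcAacTggcAgct
mock: ctAcTacAggcTgct
mmu-miR-22-3p: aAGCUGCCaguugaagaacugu
From anti-miR-22 to mock the substitutions are T3A, A5T, T8A and A12T, numbered from 1 at the 5′ end. The longest complementary run of mock with this microRNA is 4 bases. Anti-miR-22 is complementary to bases 2 to 16 of the microRNA without a mismatch, which covers the whole seed. The microRNA sequence is from RefSeq (GRCm38.p6, chr11:75463772-75463793, plus strand), and mmu-miR-22-3p is the only entry with this seed among the 1679 mature mouse microRNAs of that table. The longest perfectly complementary run between anti-miR-22 and any other entry was 9 bases (mmu-miR-3966). The longest for mock was also 9 bases (mmu-miR-1906). A run of complementary bases is a description of the sequences, and binding was not measured. The level of miR-22 itself was not analysed here.

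A microRNA guides an Argonaute protein to messages that pair with its seed and lowers their stability or translation. An anti-miR occupies the microRNA, so that messages it represses can rise, while other genes may follow at a distance. Ppdpf encodes a small protein named for its part in the growth and differentiation of pancreatic progenitor cells in fish. Leng8 encodes a nuclear protein with a region like that of the message export scaffold GANP. Fbxo6 encodes an F-box protein that recognises N-linked glycans and marks misfolded glycoproteins for destruction. Ppic encodes cyclophilin C, a prolyl isomerase of the secretory pathway. Atxn7l1 encodes a relative of ataxin-7, a subunit of the SAGA chromatin complex.

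Defining markers of kidney tubule were present on all arrays: the mean log2 value of 6 proximal tubule markers lay between 14.4 and 16.7. The means of 3 adrenal gland, 4 skeletal muscle and 3 liver markers lay between 3.25 and 3.79, 4.11 and 4.60, and 7.88 and 9.83. Levels of different probes are not comparable, so these lists are not ranked. Array medians lay between 5.75 and 5.86. Havcr1 and Lcn2, markers of injured tubule, were high on all Rhabdo arrays (17.9 to 19.1 for Havcr1). Array 1 of sham mock stood apart from its group in them, with a Havcr1 value of 14.6 against 7.00 to 7.74 on the rest of that group. The sham anti-miR-22 differences without this array were 3.40 for Ppdpf, 1.86 for Leng8, 1.95 for Fbxo6, 1.26 for Ppic and 2.01 for Atxn7l1. The glycerol effect with mock was then -1.03, -0.88, 2.15, -1.48 and -1.07, in the same order. Covariation and profile likeness were not recomputed without it.

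All 5 genes were higher with anti-miR-22 than with mock in both conditions. The log2 difference ran from 1.35 for Ppic to 3.37 for Ppdpf in sham kidneys, and from 1.67 for Atxn7l1 to 3.10 for Leng8 in Rhabdo kidneys. For 5 of 5 genes every sham anti-miR-22 array lay above every sham mock array, which held for 4.32% of all 22205 probes. For 5 of 5 every Rhabdo anti-miR-22 array also lay above every Rhabdo mock array, as for 3.45% of all probes. These counts follow from how the genes were chosen and nothing is read from them. In Ppdpf, Leng8 and Ppic all 12 anti-miR-22 arrays lay above all 12 mock arrays whatever the injury, as in 0.766% of all probes. In Fbxo6 and Atxn7l1 the glycerol effect made these ranges overlap.

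**Figure D1:**
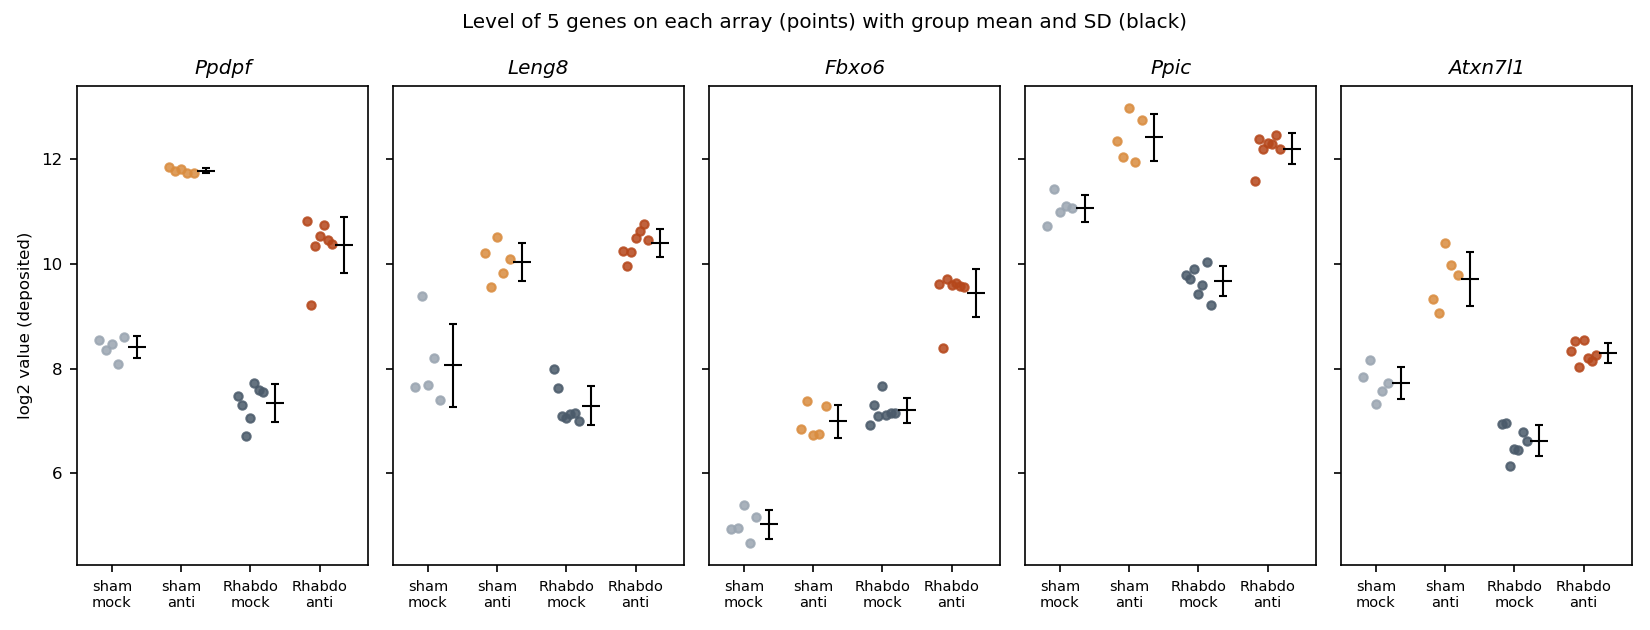
The vertical axis gives the deposited log2 value of each of the 5 genes, with 1 point per array and the group mean ± SD in black, for sham mock and sham anti-miR-22 (5 arrays each) and Rhabdo mock and Rhabdo anti-miR-22 (7 arrays each). Within sham and within Rhabdo the anti-miR-22 arrays sit above the mock arrays for every gene, and array 2 of Rhabdo anti-miR-22 lies low for Ppdpf (9.21) and Fbxo6 (8.39).

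Among all 19505 genes ranked by the anti-miR-22 difference averaged over sham and Rhabdo, Ppdpf was 2nd, Leng8 4th, Fbxo6 8th, Ppic 12th and Atxn7l1 19th. The choice did not take every gene in this range. The forkhead transcription factor gene Foxp1 ranked just above Ppdpf at 4.00, against 3.19 for Ppdpf. The Mediator subunit gene Med15 lay between Ppdpf and Leng8 at 2.78, and Pum2, which encodes an RNA-binding repressor, just below Leng8 at 2.26. Fbxo6 (2.10) stood between the nuclear pore gene Nup54 (2.13) and the Mediator gene Med12 (2.00). Ppic (1.94) stood between Elmod3 (1.95) and Dap (1.91), and Atxn7l1 (1.83) between the zinc transporter gene Slc39a7 (1.84) and the actin-binding gene Lasp1 (1.81).

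**Figure D2:**
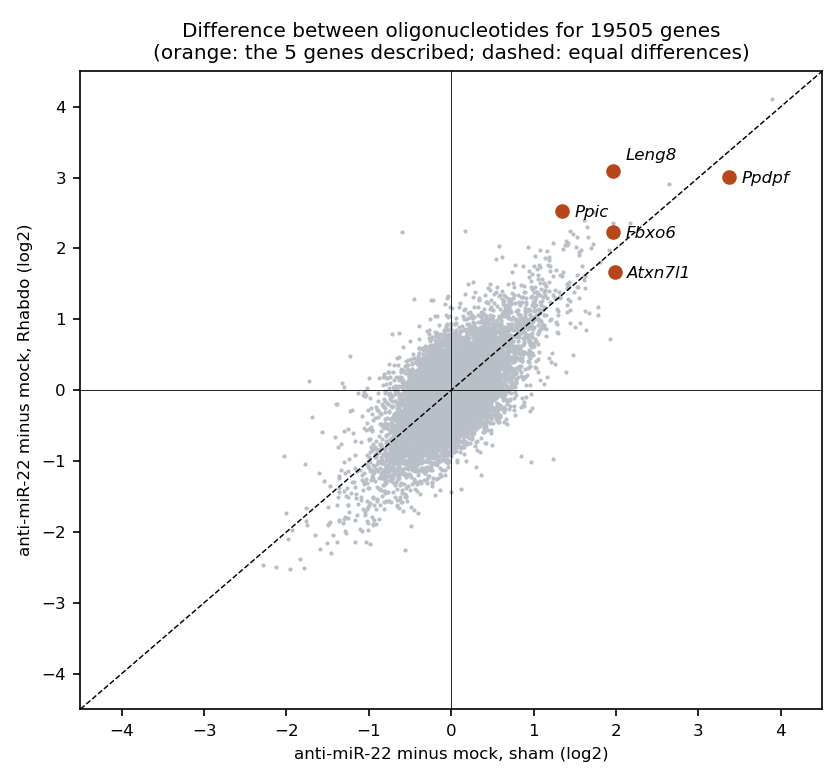
Each point is 1 of 19505 genes, with the log2 difference between anti-miR-22 and mock in sham kidneys on the horizontal axis and in Rhabdo kidneys on the vertical axis. The 5 genes, in orange, lie at the upper right edge, Leng8 and Ppic above the dashed line of equal differences, Ppdpf and Atxn7l1 below it and Fbxo6 close to it.

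Ppdpf (probe TC0200002814.mm.2) had the largest sham difference of the 5. Its sham mock values were 8.54, 8.36, 8.47, 8.08 and 8.60, and its sham anti-miR-22 values 11.84, 11.77, 11.81, 11.73 and 11.73. The sham anti-miR-22 arrays were tightly grouped (SD 0.05), 3.13 log2 units above the highest sham mock array. In Rhabdo kidneys the mock arrays ran from 6.71 through a median of 7.47 to 7.73, and the anti-miR-22 arrays from 9.21 through 10.45 to 10.81. The lowest of these was array 2, the next lowest stood at 10.34, and the groups still did not overlap. The difference was 3.37 ± 0.21 (n = 5 against 5) in sham kidneys, a 10.3-fold ratio on the deposited scale. It was 3.00 ± 0.18 (n = 7 against 7) in Rhabdo kidneys, 8.03-fold. Here and below, ± after a difference is the limma standard error (SE), from a spread shared by all groups, not by the compared arrays alone. With mock and anti-miR-22, the SDs of Ppdpf were 0.20 and 0.05 in sham and 0.36 and 0.53 in Rhabdo kidneys. Without array 2 the Rhabdo difference was 3.20.

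Ppdpf was lower in injured kidneys under either oligonucleotide. Every Rhabdo mock array lay below every sham mock array, as in 9.85% of all probes, and every Rhabdo anti-miR-22 array below every sham anti-miR-22 array, as in 11.2%. The order of the 4 groups was sham anti-miR-22, Rhabdo anti-miR-22, sham mock and Rhabdo mock, with no overlap between neighbours. The glycerol difference was -1.07 ± 0.20 with mock and -1.43 ± 0.20 with anti-miR-22. Averaged over both, Ppdpf fell 2.37-fold (-1.25 ± 0.14, 95% interval -1.53 to -0.96, limma adjusted p = 7.25e-09).

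Leng8 (probe TC0700000024.mm.2) had a wide spread in sham mock, with values of 7.65, 9.39, 7.69, 8.19 and 7.41. Array 2, the highest, came within 0.16 of the lowest sham anti-miR-22 array. The sham anti-miR-22 values were 10.21, 9.55, 10.51, 9.82 and 10.08. Rhabdo mock arrays ran from 6.99 through 7.14 to 7.98 and Rhabdo anti-miR-22 arrays from 9.95 through 10.46 to 10.76, which left a gap of 1.97. The difference was 1.97 ± 0.26 in sham kidneys (3.91-fold) and 3.10 ± 0.22 in Rhabdo kidneys (8.58-fold). Without sham mock array 2 the sham difference was 2.30.

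The averaged glycerol effect on Leng8 did not pass the test. With mock the effect was -0.77 ± 0.24 and with anti-miR-22 it was 0.36 ± 0.24. These are opposite in sign and partly cancel in the average. Without sham mock array 2 the value with mock was -0.44. The average was -0.21 ± 0.17 (95% interval -0.56 to 0.15, limma adjusted p = 0.364), and -0.04 without that array. Rhabdo and sham anti-miR-22 arrays overlapped, as did sham and Rhabdo mock arrays.

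Fbxo6 (probe TC0400004014.mm.2) was the one gene of the 5 that rose with injury. Its sham mock values were 4.94, 4.97, 5.40, 4.67 and 5.17, and its sham anti-miR-22 values 6.84, 7.38, 6.73, 6.75 and 7.29. Rhabdo mock arrays ran from 6.92 through 7.15 to 7.67, and Rhabdo anti-miR-22 arrays from 8.39 through 9.60 to 9.71. Injured kidneys with mock and uninjured kidneys with anti-miR-22 had similar values: the means were 7.20 ± 0.24 (SD, n = 7) and 7.00 ± 0.31 (SD, n = 5), and the arrays overlapped. Arrays with both injury and anti-miR-22 lay above all others.

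The anti-miR-22 difference of Fbxo6 was 1.97 ± 0.20 in sham kidneys and 2.23 ± 0.17 in Rhabdo kidneys (4.70-fold). No fold is given in sham kidneys, where the mock mean of 5.03 ± 0.27 (SD) was below the array medians and background was not measured. Without Rhabdo anti-miR-22 array 2, at 8.39 where the next array was at 9.55, the Rhabdo difference was 2.41. The glycerol difference was 2.17 ± 0.19 with mock and 2.44 ± 0.19 with anti-miR-22. Every Rhabdo mock array lay above every sham mock array, as in 11.3% of all probes, and every Rhabdo anti-miR-22 array above every sham anti-miR-22 array, as in 12.7%. Averaged over both oligonucleotides, Fbxo6 rose by 2.31 ± 0.13 (95% interval 2.03 to 2.58, limma adjusted p = 2.24e-15).

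Ppic (probe TC1800001338.mm.2) had sham mock values of 10.71, 11.43, 10.99, 11.11 and 11.06 and sham anti-miR-22 values of 12.34, 12.04, 12.97, 11.94 and 12.74. Rhabdo mock arrays ran from 9.22 through 9.71 to 10.04 and Rhabdo anti-miR-22 arrays from 11.57 through 12.28 to 12.46. The mock groups were well apart while the anti-miR-22 groups overlapped. The difference was 1.35 ± 0.19 in sham kidneys (2.54-fold) and 2.53 ± 0.16 in Rhabdo kidneys (5.78-fold). The glycerol difference was -1.39 ± 0.18 with mock and -0.21 ± 0.18 with anti-miR-22. Without Rhabdo anti-miR-22 array 1, the lowest of its group, the latter was -0.11, and the omission of single arrays gave -0.33 to -0.07. Averaged, Ppic fell 1.74-fold (-0.80 ± 0.13, 95% interval -1.06 to -0.54, limma adjusted p = 3.39e-06).

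Atxn7l1 (probe TC1200000287.mm.2) had sham mock values of 7.84, 8.16, 7.33, 7.57 and 7.72 and sham anti-miR-22 values of 9.34, 9.06, 10.38, 9.97 and 9.78. Rhabdo mock arrays ran from 6.14 through 6.62 to 6.96 and Rhabdo anti-miR-22 arrays from 8.04 through 8.25 to 8.54. Injured kidneys with anti-miR-22 overlapped slightly with uninjured kidneys with mock, by 0.12. The difference was 1.98 ± 0.20 in sham kidneys (3.95-fold) and 1.67 ± 0.17 in Rhabdo kidneys (3.18-fold). The glycerol difference was -1.10 ± 0.19 with mock and -1.41 ± 0.19 with anti-miR-22. Averaged, Atxn7l1 fell 2.39-fold (-1.26 ± 0.13, 95% interval -1.53 to -0.99, limma adjusted p = 1.55e-09).

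The 5 genes thus divided by their response to injury. In the averaged glycerol effect 4 of 5 passed the test, 1 higher (Fbxo6) and 3 lower (Ppdpf, Ppic and Atxn7l1). Of all probes 44.8% passed, 23.3% higher and 21.5% lower, so many other genes responded too. This average weighs the 4 group means equally. If arrays vary alike in all groups, it is uncorrelated with the differences that chose the genes. The SDs were unequal, for Ppdpf 0.05 in sham anti-miR-22 and 0.53 in Rhabdo anti-miR-22, so this holds only approximately. Without sham mock array 1 it was -1.23 for Ppdpf, -0.26 for Leng8, 2.30 for Fbxo6, -0.85 for Ppic and -1.24 for Atxn7l1, and the same 4 genes passed.

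**Figure D3:**
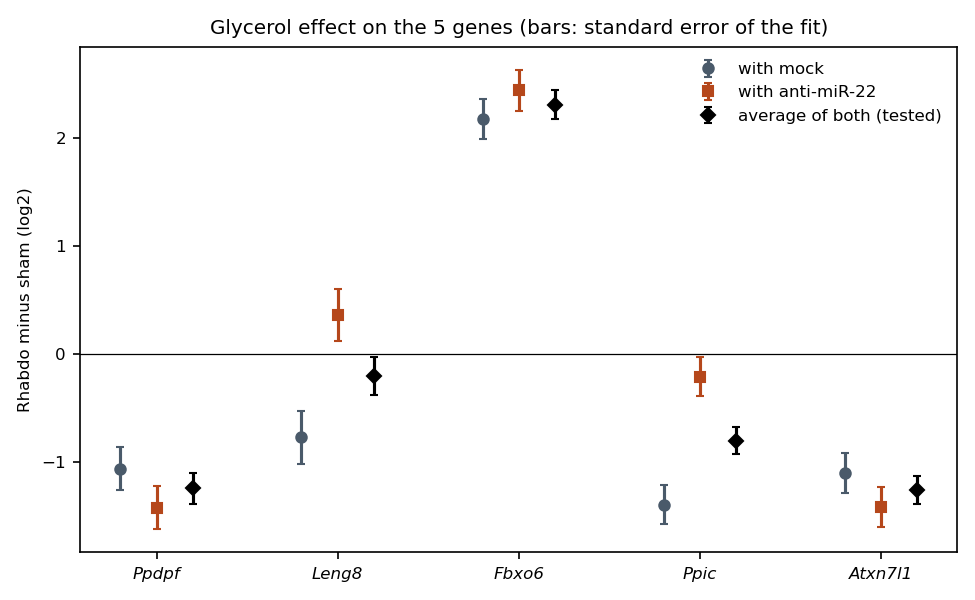
The vertical axis gives Rhabdo minus sham in log2 units for each gene, with mock (circles), with anti-miR-22 (squares) and averaged over both (diamonds), and bars show the standard error of the fit. Fbxo6 lies above 0 (average 2.31) and Ppdpf, Ppic and Atxn7l1 below 0, while Leng8 lies on opposite sides of 0 with mock and with anti-miR-22.

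The values of the glycerol effect with each oligonucleotide share arrays with the differences that chose the genes, so their contrast is a description. The anti-miR-22 difference was larger in Rhabdo than in sham kidneys by 1.18 ± 0.25 for Ppic and by 1.13 ± 0.34 for Leng8 (0.80 without sham mock array 2). For Fbxo6 it was larger by 0.26 ± 0.27. It was smaller in Rhabdo kidneys for Ppdpf (-0.36 ± 0.28) and Atxn7l1 (-0.31 ± 0.26). These last 3 values are near the size of their own standard errors. Without Rhabdo anti-miR-22 array 2 they were 0.44 for Fbxo6, -0.17 for Ppdpf and -0.35 for Atxn7l1. The omission of other single arrays also moved them: the full ranges were 0.17 to 0.44 for Fbxo6, -0.47 to -0.17 for Ppdpf and -0.47 to -0.14 for Atxn7l1.

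RNA from a halved kidney mixes cell types, so fewer cells of a type and less RNA per cell cannot be told apart. Marker lists of several cell types are given beside the differences, without a test. The mean of 4 of 4 endothelium markers lay between 11.1 and 11.5 on sham mock and between 10.8 and 10.9 on sham anti-miR-22 arrays, and between 11.1 and 11.5 on Rhabdo mock and 10.3 and 10.8 on Rhabdo anti-miR-22 arrays. The members differed among themselves: in Rhabdo kidneys the group mean of the VEGF receptor gene Kdr was 11.06 with mock and 9.44 with anti-miR-22, and that of Emcn 12.67 and 12.75. The mean of 6 of 6 proximal tubule markers lay between 14.8 and 15.5 on Rhabdo mock and 14.4 and 14.9 on Rhabdo anti-miR-22 arrays, which overlap. Of these 6, the water channel gene Aqp1 was at 11.78 with mock and 12.17 with anti-miR-22, and the other 5 had lower means with anti-miR-22. For the 3 of 4 neutrophil markers with a probe it lay between 4.00 and 4.26 on sham mock and 4.13 and 4.40 on sham anti-miR-22 arrays, and between 4.34 and 5.42 on Rhabdo mock and 4.84 and 6.40 on Rhabdo anti-miR-22 arrays, with overlap in both conditions. Marker lists also differed between sham and Rhabdo kidneys, in either direction. The mean of 5 thick limb and distal tubule markers lay between 14.2 and 14.7 on sham mock and 10.8 and 11.4 on Rhabdo mock arrays. With anti-miR-22 it lay between 14.2 and 14.3 and between 10.5 and 11.1. For 4 fibroblast and smooth muscle markers it lay between 8.81 and 9.36 on sham mock and 10.3 and 10.9 on Rhabdo mock arrays. The part of cell types in the differences of the 5 genes, glycerol effect included, was not tested.

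Whether the 5 genes vary together between arrays of the same group was examined on deviations from the group means, which do not enter the choice of the genes. Of 10 pairs over 24 arrays, 0 passed a permutation test of Pearson's r after Benjamini-Hochberg adjustment, and 3 had an unadjusted p below 0.05. Among the 3 was Leng8 with Atxn7l1 (r = 0.49, permutation p = 0.02, adjusted 0.1). Fbxo6 with Atxn7l1, also among them, had a negative r (-0.42, permutation p = 0.0363, adjusted 0.121). The smallest adjusted p was that of Leng8 and Ppic (r = 0.52, permutation p = 0.00763, adjusted 0.0763). Spearman's rho for this pair was 0.56 (permutation p = 0.00873, adjusted 0.0873). Its r was 0.49 without the 2 arrays farthest from the median of Leng8, 0.32 within the 7 Rhabdo mock arrays (exact p = 0.491) and 0.28 within the 7 Rhabdo anti-miR-22 arrays (exact p = 0.558). The largest r, 0.55 for Ppdpf and Fbxo6 (permutation p = 0.0832, adjusted 0.208; rho = 0.20, permutation p = 0.318, adjusted 0.405), was 0.01 without the 2 arrays farthest from the median of Ppdpf.

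The genes whose profile was most like that of each gene were found by the root mean square difference of centred log2 values over the 24 arrays. Its median over all other genes ran from 1.18 for Atxn7l1 to 1.76 for Ppdpf. The measure includes the oligonucleotide differences that chose the genes. Likeness among the 5 and to other genes of high rank was therefore likely from the choice, and nothing is read from it. Those nearest to Ppdpf were Cox20, a cytochrome oxidase assembly factor gene (0.64), Foxp1 (0.67) and Elmod3 (0.70). Those nearest to Leng8 were Med12 (0.51), Ppic (0.56) and Pum2 (0.57). Those nearest to Fbxo6, which also rose with injury, were Tax1bp3 (0.57), Jpt1 (0.61) and Agfg1 (0.62), with averaged glycerol differences of 2.50, 1.80 and 1.41. Those nearest to Ppic were Ndufa4, a gene of the respiratory chain (0.34), Lztfl1 (0.40) and the oxysterol-binding family gene Osbpl9 (0.43). Among the 3 nearest to Atxn7l1 were Osbpl9 (0.39) and the MYC network gene Mxi1 (0.41). Among the 5 genes themselves the closest profiles were those of Leng8 and Ppic (0.56) and of Ppic and Atxn7l1 (0.56), and the most distant those of Ppdpf and Fbxo6 (1.86).

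Relatives of the 5 genes, by family or complex, were set beside them. The 5 genes were chosen for large differences, so a smaller difference in a relative was likely from the choice and nothing is read from it. In sham kidneys 3.85% of all probes were called higher and 3.31% lower at a limma adjusted p below 0.05, and in Rhabdo kidneys 9.48% and 10.2%. For the averaged glycerol effect the shares of all probes were 23.3% higher and 21.5% lower. The lists leave out the 5 genes, and their counts are descriptions beside these shares.

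The cyclophilins are prolyl isomerases of which Ppic is one. Of 16 others measured, 0 were called by limma in sham kidneys and 3 had an unadjusted p below 0.05, with a median difference of -0.06 where that of all probes was 0.00. In Rhabdo kidneys 3 were called higher and 2 lower, with a median of 0.07 against 0.02 for all probes. Ppib, the cyclophilin of the endoplasmic reticulum, was higher by 0.56 ± 0.11 (adjusted p = 0.000502), Ppil3 by 0.45 ± 0.11 (0.00365) and Ppig by 0.41 ± 0.11 (0.00832). Ppwd1 (-0.65 ± 0.17, adjusted p = 0.00596) and Ppil2 (-0.42 ± 0.12, 0.00861) were lower. In the averaged glycerol effect, in which Ppic fell, 8 of the 16 were higher and 2 lower (median 0.29, against 0.00 for all probes). The larger of these falls was that of Ppil6 (-2.67 ± 0.17, adjusted p = 4.33e-14). The other, Nktr, lost its call when either of 2 arrays was left out.

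The SAGA complex acetylates and deubiquitinates histones, and ataxin-7 tethers its deubiquitinase. Of 22 members measured, 2 were called higher and 1 lower in sham kidneys (median 0.01) and 4 higher and 2 lower in Rhabdo kidneys (median 0.00). The splicing factor gene Sf3b3, which is also a SAGA subunit, was higher in both (1.06 ± 0.19, adjusted p = 0.000354, and 0.80 ± 0.16, 0.000379). The deubiquitinase gene Usp22 was called in sham kidneys (0.78 ± 0.14, adjusted p = 0.000415) and had a difference of 0.32 ± 0.12 (0.062) in Rhabdo kidneys. Taf10 was lower in both (-0.71 ± 0.13, adjusted p = 0.000681, and -1.43 ± 0.11, 8.22e-11). Atxn7 itself had differences of 0.31 (adjusted p = 0.426) and 0.27 (0.28), and Atxn7l2 of -0.10 (0.905) and -0.15 (0.699). With glycerol 11 of 22 were higher and 4 lower (median 0.32). Of these, the call of Supt7l, lower, was lost when any 1 of 16 arrays was left out. That of Atxn7l3, higher, was lost with 1.

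F-box proteins of the FBA type, which bind glycans or share that fold, include Fbxo6. Of 5 others measured, Fbxo17 and Fbxo27 were dim, with group means between 3.65 and 4.03 near the lower quartile of all values, 3.97. Of the 5, 0 were called by limma in either oligonucleotide comparison, and 0 in sham and 1 in Rhabdo kidneys had an unadjusted p below 0.05. The differences lay between -0.12 and 0.34. Fbxo2 and Fbxo44, which lie next to Fbxo6 in the genome, had Rhabdo differences of -0.03 (adjusted p = 0.911) and -0.01 (0.975). With glycerol 0 of 5 were higher and 2 were lower, where Fbxo6 rose: Fbxo44 (-1.86, adjusted p = 6.52e-14) and Nccrp1 (8.47e-25). Nccrp1 had means of 9.76 and 9.64 in sham and 3.80 and 3.95 in Rhabdo kidneys with mock and anti-miR-22. The latter are dim, so no size of its fall is given.

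The SCF core joins F-box proteins to a ubiquitin ligase. Of 6 genes measured of this core and its regulators, 0 were higher and 1 lower in sham kidneys, and 1 higher and 2 lower in Rhabdo kidneys. The scaffold gene Cul1 was lower in both (-1.05 ± 0.16, adjusted p = 2.5e-05, and -1.29 ± 0.13, 9.45e-09), and its exchange factor gene Cand1 was lower in Rhabdo kidneys (-0.72 ± 0.14, 0.00019). Nedd8, which encodes the modifier that activates the ligase, was higher there (0.95 ± 0.17, 0.000115). With glycerol 1 of 6 was higher and 1 lower.

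Between anti-miR-22 and mock, those genes of glycoprotein quality control that were called were lower with anti-miR-22. Fbxo6 acts in this process. Of 18 measured, 0 were higher and 1 lower in sham kidneys (median -0.12), and 0 higher and 6 lower in Rhabdo kidneys (median -0.29). Derl1, a channel component gene of the endoplasmic reticulum, was lower in both (-0.51 ± 0.12, adjusted p = 0.00766, and -0.73 ± 0.10, 3.55e-06). Edem1, a mannosidase-like gene (-0.85 ± 0.12, 2.23e-06), Sel1l, the adaptor of the ligase complex (-0.88 ± 0.13, 4.57e-06), and Uggt1, the folding sensor (-0.59 ± 0.11, 0.000187), were lower in Rhabdo kidneys. Glycerol gave 5 higher and 5 lower (median -0.07). Of these, the call of Sel1l, lower, was lost when any 1 of 13 arrays was left out. That of Ufd1, higher, was lost with 1.

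Message export genes were set beside Leng8. The list also holds Leng9, which shares a name stem with Leng8 and for which no part in message export is claimed here. It is among the 15 and is counted again below as a genomic neighbour of Leng8. Of 15 measured, 1 was higher and 0 lower in sham kidneys (median 0.09), and 6 were higher and 3 lower in Rhabdo kidneys (median 0.22). The one called in sham kidneys was Thoc5 (0.62 ± 0.17, adjusted p = 0.0211). Its sham call was lost without sham anti-miR-22 array 2 (adjusted p = 0.0882), sham mock array 4 (0.0949) or sham mock array 5 (0.0707). This THO complex gene was also higher in Rhabdo kidneys (0.56 ± 0.15, 0.00559). Cetn3, a centrin gene (1.24 ± 0.16, 1.07e-06), and Thoc1 (0.97 ± 0.13, 1.9e-06) had the smallest p-values in Rhabdo kidneys. The Rhabdo calls of Thoc7 and Thoc3, both lower, were lost when any 1 of 6 and 5 arrays was left out. That of Nxt1, higher, was lost with any 1 of 3. Mcm3ap, which encodes GANP, had differences of 0.16 (adjusted p = 0.752) and -0.05 (0.873). With glycerol 6 of 15 were higher and 2 lower (median 0.16). The glycerol call of Thoc7, lower, was lost with the omission of 1 array.

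The nearest genes on the chromosome are given because they share the locus; the choice of the 5 genes made smaller values likely here too. For each of the 5 genes the 3 nearest protein-coding genes with a probe on either side were taken from the RefSeq gene table of GRCm38.p6, 30 in all. In sham kidneys 0 of 30 were called by limma and 1 had an unadjusted p below 0.05, with differences between -0.58 and 0.30. In Rhabdo kidneys 1 was higher, Nampt near Atxn7l1 (0.40, adjusted p = 0.0403), and 2 were lower, Mad2l2 beside Fbxo6 (-0.78, 0.00509) and Sncaip near Ppic (-0.57, 0.0446). The calls of Nampt and Sncaip were each lost when any one of 8 and 10 of the arrays was left out. Eef1a2 and Ptk6, on the 2 sides of Ppdpf, had Rhabdo differences of -0.04 (adjusted p = 0.87) and 0.38 (0.0642). Ttyh1 and Leng9, on the 2 sides of Leng8, had 0.06 (0.87) and 0.43 (0.0587). Snx24 and Prdm6, on the 2 sides of Ppic, had -0.44 (0.0507) and 0.25 (0.222). Snx24 also had the lowest sham difference, -0.58 (0.0597). Cdhr3 and Efcab10, on the 2 sides of Atxn7l1, had Rhabdo differences of 0.18 (0.375) and 0.23 (0.59).

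**Figure D4:**
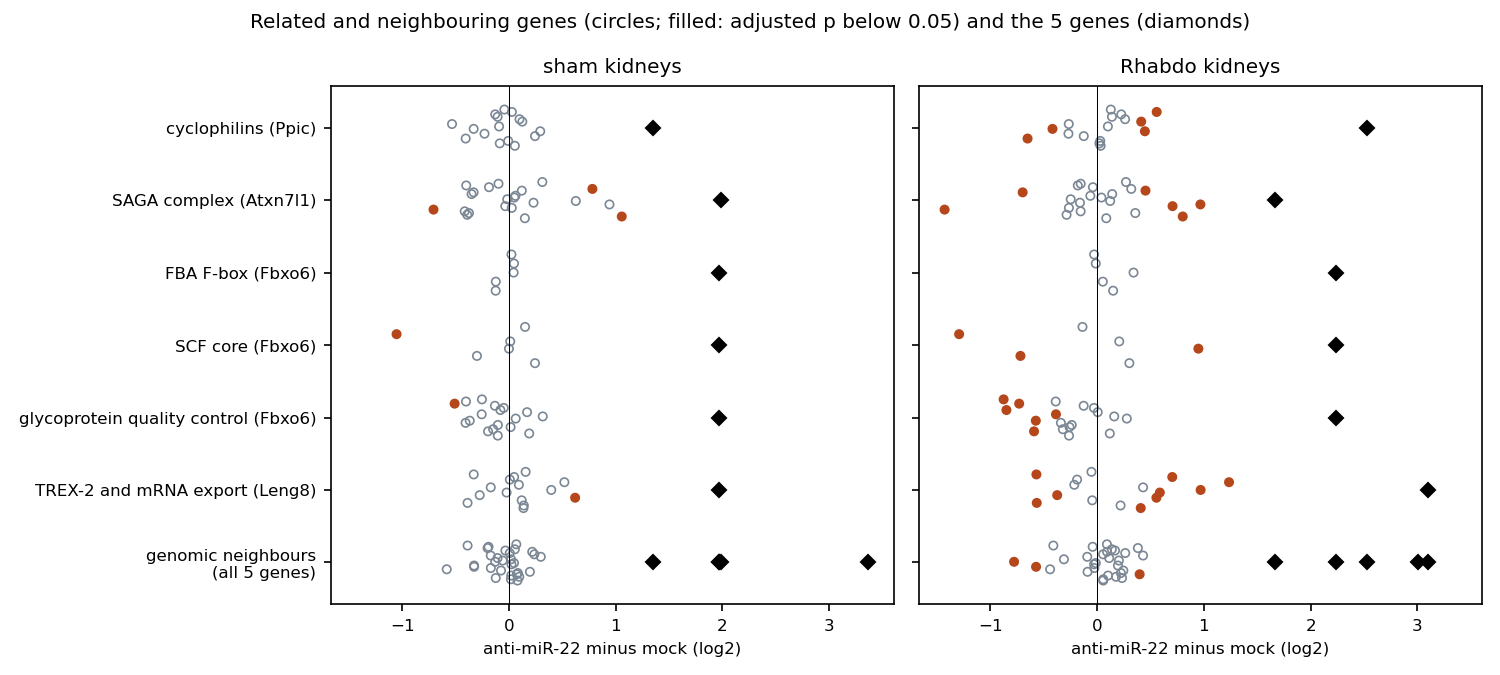
The horizontal axis gives anti-miR-22 minus mock in log2 units in sham (left) and Rhabdo kidneys (right), for related genes by list and for 30 genomic neighbours; filled circles passed a limma adjusted p below 0.05, and diamonds are the 5 genes. The circles lie between -1.43 (Taf10) and 1.24 (Cetn3), and the diamonds mark the differences by which the 5 genes were chosen.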

How the data were processed

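Kidney RNA was hybridised to 24 Clariom S mouse arrays, read in 1 colour. The authors deposited log2 values, for which the submitters' processing notes name RMA and Partek 6.4 with no settings. RMA normalizes arrays to each other and compresses differences among dim probes. Single deposited values ran from 2.12 to 19.92. Without the settings it is not known how this scale was made, so all fold ratios hold on the deposited scale only. Of 22206 rows, 22205 had a value on every array. A symbol was given for 19572 probes and none for 2633, and 0 columns were left unused. Arrays give no read depth, so their number limits the precision.

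The 4 group means were fitted over all probes with limma 3.58.1 (lmFit, eBayes) in R 4.3.3, two-sided, with Benjamini-Hochberg adjustment over all probes and a threshold of 0.05. Each probe had a single estimate of spread, shared by all groups and moderated by eBayes, which gave the standard errors of differences. The test was checked on simulated data. Covariation used 100000 permutations within groups. The 5 genes and all lists were chosen with earlier results of these data known. Named genes were the 5 genes, the 3 most similar profiles of each, their neighbours in rank and on the chromosome, and called list members, at most 4 a list and contrast, of which the text gives a part; 1 similar profile is not reported here. Listed genes that were not called are named where they are the closest relatives of a gene. Alternatives were other moderation, normalization, dim-probe filter, array weights, replicate block, fits on 2 groups alone and the omission of each array. A search of transcripts for the oligonucleotides was not run.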

Additional observations from a re-analysis of the deposited data

Results flagged for a closer look

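Array 2 of Rhabdo anti-miR-22 lay far below the rest of its group for Ppdpf, at 9.21 where the next array was at 10.34, and for Fbxo6, at 8.39 where the next was at 9.55. Array 1 of the same group lay low for Ppic, at 11.57 where the next was at 12.19. These were 3 of 20 gene and group combinations examined for an array whose gap to its nearest neighbour exceeded Dixon's 95% critical value, a limit that chance passes in about 1 in 20. Over all 22205 probes, array 2 was the outlying low array of its group in 0.923% and the outlying high array in 0.937%. The other 6 arrays of that group were outlying low in 0.207% to 0.383% and outlying high in 0.333% to 0.594%. Its correlation across probes with the mean of the other arrays was 0.992, and theirs were 0.994 to 0.995; probes are not independent replicates. Leng8 and Atxn7l1 had values of 9.95 and 8.53 on array 2, the lowest of its group for Leng8 and the second highest for Atxn7l1.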

How the results depend on the processing

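All 5 anti-miR-22 differences kept their sign in both conditions under every alternative run, and moved by less than the spread between arrays. These differences chose the genes, so their stability is a description. Some alternatives cannot move them, such as other moderation or the omission of an array of the other condition. With single arrays left out, the sham difference lay between 3.28 and 3.41 for Ppdpf, 1.80 and 2.30 for Leng8, 1.87 and 2.06 for Fbxo6, 1.21 and 1.46 for Ppic and 1.81 and 2.15 for Atxn7l1. In the averaged glycerol effect the same 4 genes passed in all 30 alternatives. Its adjusted p was at most 1.43e-05 for these 4 and lay between 0.188 and 0.847 for Leng8. With the replicate block, the number in the title taken as a block, the averaged glycerol effect was -1.30 for Ppdpf, -0.20 for Leng8, 2.29 for Fbxo6, -0.82 for Ppic and -1.26 for Atxn7l1, and 9379 probes were called in place of 9957. Deviations of same-numbered arrays correlated between -0.11 and 0.10 over 32 pairs. Between Rhabdo mock and Rhabdo anti-miR-22 they ran from -0.02 to 0.10, and between sham mock and sham anti-miR-22 from -0.11 to 0.03. Differently numbered arrays were not compared, so whether equal numbers mark a pairing was not decided. The block changed no call on the 5 genes. Among 82 related genes the number called higher in sham kidneys was 3, and 2 to 5 with single arrays left out, an alternative chosen after seeing the data; it was 5 without sham anti-miR-22 array 4. Without sham mock array 1 the same 6 related genes were called in sham kidneys, in either direction, and 45 of the 47 called for glycerol. Each gene has 1 probe, so no other probe could be tried.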
